A study of Mus musculus with 6 samples.

Results

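Immunoglobulin heavy chain variable (Ighv) segments were taken as all rows of the deposited table of TPM, a length-scaled share of all transcripts, whose gene identifier mapped to a mouse symbol starting with Ighv. This gave 185 of 56750 rows, with 183 different symbols. The annotation called 113 of them functional variable genes and 70 pseudogenes, and gave 2 rows on the opposite strand the type IG_LV_gene. All lie on chromosome 12. Expression was measured by RNA sequencing in C57BL/6 mice, in bone marrow cells sorted as Lin- Sca1+ cKit+ (LSK), the compartment of blood stem cells and early progenitors. One group had colitis induced by 2.5% dextran sulfate sodium (DSS) over 5 days, called DIC, and the other was the control group. Each group had 3 mice and 3 libraries, named here DIC 1, DIC 2, DIC 3, control 1, control 2 and control 4. The labels give no further genetic change in either group. The p-values measure only the spread between these libraries.

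A B cell makes its heavy chain gene by joining a variable, a diversity (D) and a joining segment, so each B cell clone carries a single productive variable segment. The segments lie in an array, with the Ighv2 and Ighv5 families nearest to the D segments and the large Ighv1 family, also called J558, at the far end. Transcripts of the joined gene are abundant in plasma cells, while stem cells carry the locus unrearranged. A TPM value does not separate transcripts of a joined gene from those of an unjoined segment. In bulk samples, fewer cells of a type and less RNA per cell cannot be told apart.

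The last 300 coding bases of the variable exon are shown for 3 segments on which the comparison turns, read from the GENCODE M21 transcripts of the build GRCm38. Ighv7-1 had the highest mean level, Ighv9-3 was seen in every DIC library and in 1 control, and Ighv4-1 was listed at 0 in every control. Capitals mark the codons for tyrosine, 1 further residue and the conserved cysteine just before the junction with the D segment. Of the 113 functional segments, 56.6% held TATTACTGT and 17.7% held TATTTCTGT, on the coding strand. The 2 patterns do not overlap each other.
Ighv7-1: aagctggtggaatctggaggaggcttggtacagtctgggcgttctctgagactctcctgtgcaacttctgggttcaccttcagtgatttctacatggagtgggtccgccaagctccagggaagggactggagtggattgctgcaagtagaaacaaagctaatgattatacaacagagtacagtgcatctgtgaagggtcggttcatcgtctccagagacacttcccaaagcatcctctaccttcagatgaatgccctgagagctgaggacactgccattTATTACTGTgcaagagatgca
Ighv9-3: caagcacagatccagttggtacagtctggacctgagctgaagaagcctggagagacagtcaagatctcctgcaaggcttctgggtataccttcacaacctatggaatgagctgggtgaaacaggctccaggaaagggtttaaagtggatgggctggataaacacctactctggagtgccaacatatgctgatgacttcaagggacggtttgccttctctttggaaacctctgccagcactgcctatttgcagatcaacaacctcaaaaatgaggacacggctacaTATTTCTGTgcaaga
Ighv4-1: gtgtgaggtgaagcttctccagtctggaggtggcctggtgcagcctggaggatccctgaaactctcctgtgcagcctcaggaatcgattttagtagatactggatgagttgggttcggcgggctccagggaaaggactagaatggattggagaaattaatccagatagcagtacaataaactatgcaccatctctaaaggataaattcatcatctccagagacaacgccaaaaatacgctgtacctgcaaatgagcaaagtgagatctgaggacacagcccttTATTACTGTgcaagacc
Over the coding part of the exon, Ighv7-1 was 71.0% identical to Ighv4-1 and 61.3% identical to Ighv9-3, so none of the 3 is a near copy of Ighv7-1.

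Ighv11-2, the other leading segment, has a near copy in Ighv11-1, and both are shown because they decide how its value can be read. Capitals mark the 4 bases that differ.
Ighv11-2: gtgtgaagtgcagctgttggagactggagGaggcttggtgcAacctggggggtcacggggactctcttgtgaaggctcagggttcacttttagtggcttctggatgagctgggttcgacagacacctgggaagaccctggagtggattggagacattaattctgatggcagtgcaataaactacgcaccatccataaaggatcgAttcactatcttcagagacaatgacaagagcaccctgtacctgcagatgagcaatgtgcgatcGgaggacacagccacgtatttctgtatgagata
Ighv11-1: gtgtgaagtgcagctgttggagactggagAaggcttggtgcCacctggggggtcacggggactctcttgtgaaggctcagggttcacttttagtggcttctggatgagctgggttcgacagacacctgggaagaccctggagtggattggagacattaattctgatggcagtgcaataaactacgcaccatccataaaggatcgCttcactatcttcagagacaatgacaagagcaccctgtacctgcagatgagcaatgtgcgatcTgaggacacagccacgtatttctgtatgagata
Counted from 1 at the 5′ end of the printed stretch, with the Ighv11-2 base first, the differences were G30A, A42C, A205C and G268T. The pair was 98.7% identical, and Ighv11-1 was listed at 0 in all 6 libraries. StringTie, named in the submitters' processing notes, divides reads among similar genes, so the split between the pair is uncertain. In all, 22 segments had a nearest copy at least 98% identical. They included the identical pair Ighv1-62-2 and Ighv1-71, and held 14.2% to 22.9% of the summed Ighv TPM of a library.

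The libraries gave values above 0 for 20474 to 22720 genes, or 36.1% to 40.0% of rows. The number of reads behind a TPM value is unknown. An exact 0 can be a failed estimate: the mitochondrial gene mt-Nd4l, looked up after its values were seen, had 27.9, 75.0 and 17.9 TPM in DIC 1, 2 and 3 but was listed at 0 in all 3 controls. For segments with zeros the value of each library is therefore given, with no mean and no fold. Kit, a gene of the sort, lay between 54.2 and 99.5 TPM, and Ly6a, which encodes Sca1, between 15.5 and 49.9 TPM. The neutrophil gene S100a8 was far higher, at 63966 to 105476 TPM in DIC and 13283 to 52974 TPM in control libraries.

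Summed Ighv TPM was higher on average in DIC, but the groups overlapped. It was 837, 167 and 350 TPM in DIC 1, 2 and 3, against 69.5, 259 and 103 TPM in control 1, 2 and 4. DIC 1 stood highest and control 1 lowest, and control 2 lay above DIC 2. The mean was 451 ± 346 TPM in DIC and 144 ± 101 TPM in control libraries (SD, n = 3 each), a ratio of 3.14. The ratio was 1.80 without DIC 1 and 5.23 without control 2. No p is given for a sum over the segments, and an exact permutation test of 3 against 3 could not go below 0.1. In every library the segments took a small part of all TPM, from 0.00695% in control 1 to 0.0837% in DIC 1.

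More segments were seen in DIC libraries. Above 0 TPM were 96, 57 and 78 segments in DIC 1, 2 and 3, against 36, 57 and 44 in control 1, 2 and 4. DIC 2 and control 2 had the same number, so the groups touched. At 1 TPM or more the numbers were 78, 36 and 65 in DIC, against 19, 39 and 27 in control libraries. At 10 TPM or more they were 30, 3 and 9 in DIC, against 0, 6 and 0 in control libraries. At each of these levels DIC 1 had the most segments, while DIC 2 had no more than control 2.

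The segments seen varied between libraries. Of the 185 rows, 113 were above 0 in at least 1 library and 72 in none. They comprised 98 of the 113 functional segments (86.7%) and 15 of the 70 pseudogenes (21.4%). Segments above 0 in all 6 libraries numbered 19, and 21 were seen in a single library, 10 of these in DIC 1. Both groups shared 72, while 35 were above 0 in DIC libraries only and 6 in control libraries only. The matching shares over all rows were not computed, so this split cannot be called particular to the segments. Of the 113, 66 had their highest value in DIC 1.

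Single-library segments could still be prominent. Ighv15-2 was at 8.59 TPM in control 1 and listed at 0 in the other 5 libraries, and it was the third segment of control 1. Ighv1-18 was at 12.8 TPM in DIC 1 alone, and Ighv1-62-2 at 8.70 TPM in DIC 3 alone. Its copy Ighv1-71, identical over the coding part of the variable exon, had 1.47, 0 and 0.62 TPM in DIC, against 0, 0 and 0 TPM in control libraries. That sequence was thus seen in DIC 1 too, and the split between the pair is uncertain. Ighv1-18, Ighv1-62-2 and Ighv1-71 were chosen after their values were seen.

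**Figure D1:**
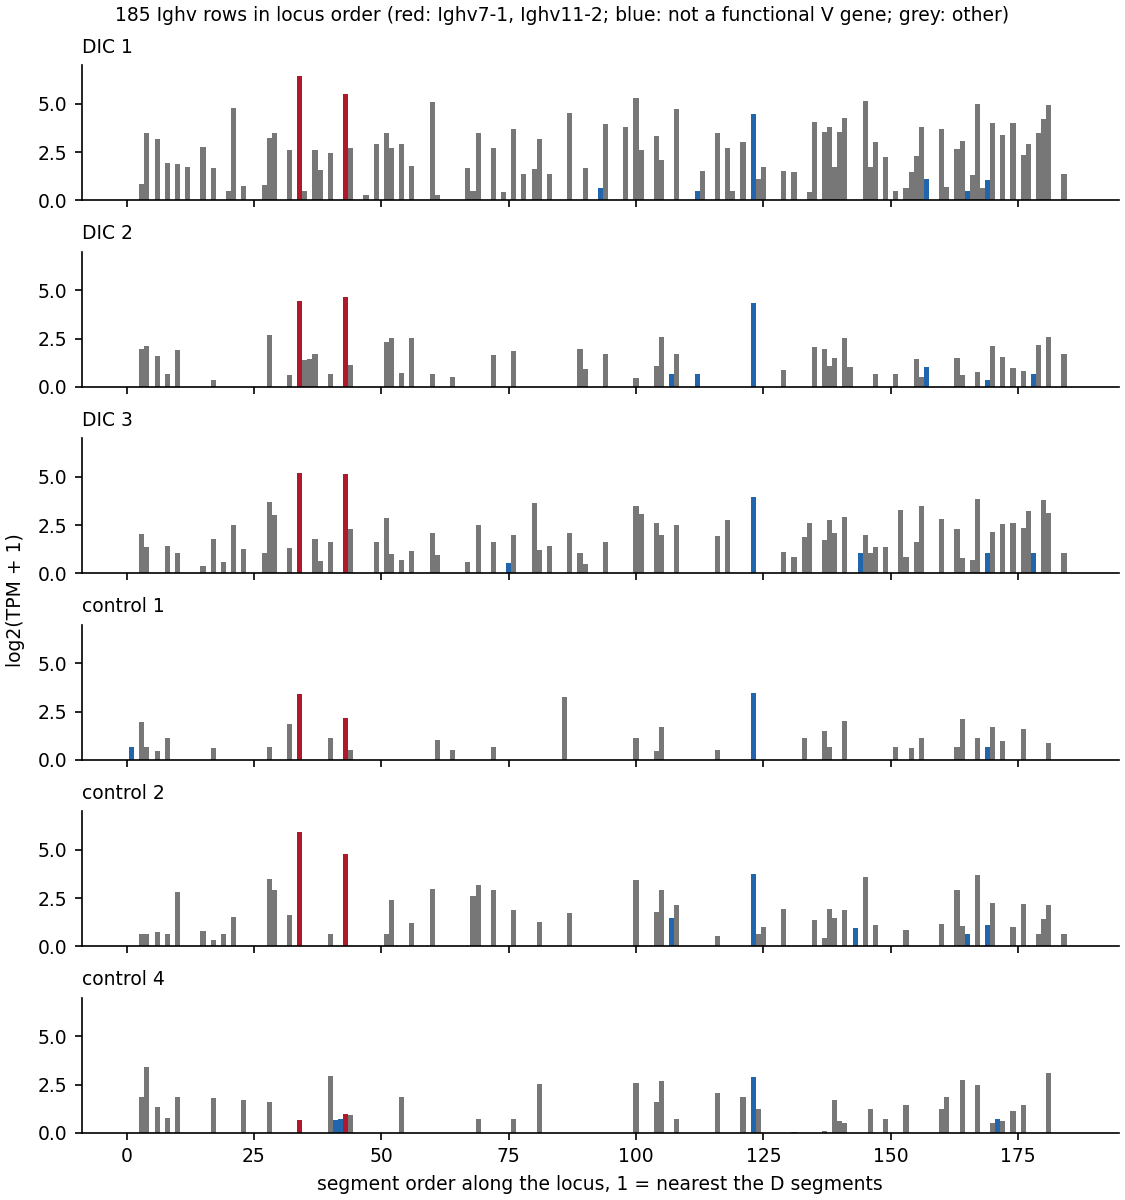
Level of each of the 185 Ighv rows, as log2(TPM + 1), in locus order from the segment nearest the D segments, with 1 panel per library. DIC 1 fills most of the array, while the 36 segments of control 1 are scattered over it, and Ighv1-41 is the tallest blue bar in each library.

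No single segment made up most of the Ighv signal in any library. The leading segment was Ighv7-1 in DIC 1 and DIC 3, with 10.2% and 10.1% of the summed Ighv TPM, and Ighv11-2 in DIC 2 with 14.4%. Among controls it was Ighv1-41 in control 1 with 14.4%, Ighv7-1 in control 2 with 23.2% and Ighv2-2 in control 4 with 9.51%. The lowest and the highest share were both in controls. The top 3 segments held 20.1%, 38.6% and 24.0% in DIC 1, 2 and 3, against 40.5%, 38.3% and 23.3% in control 1, 2 and 4.

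DIC 1 and DIC 3 spread their summed Ighv TPM over the most segments. The inverse Simpson number, the count of equally abundant segments that would give the same concentration, was 32.7, 16.3 and 28.2 in DIC, against 14.0, 12.3 and 23.1 in control libraries. It took 13, 7 and 12 segments to reach 50% of the summed TPM in DIC, against 5, 6 and 9 in control libraries. The groups overlapped in both measures, with control 4 above DIC 2. Both measures can also rise with the number of segments above 0, which was highest in DIC 1 and DIC 3. They are therefore no measure of evenness alone.

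**Figure D2:**
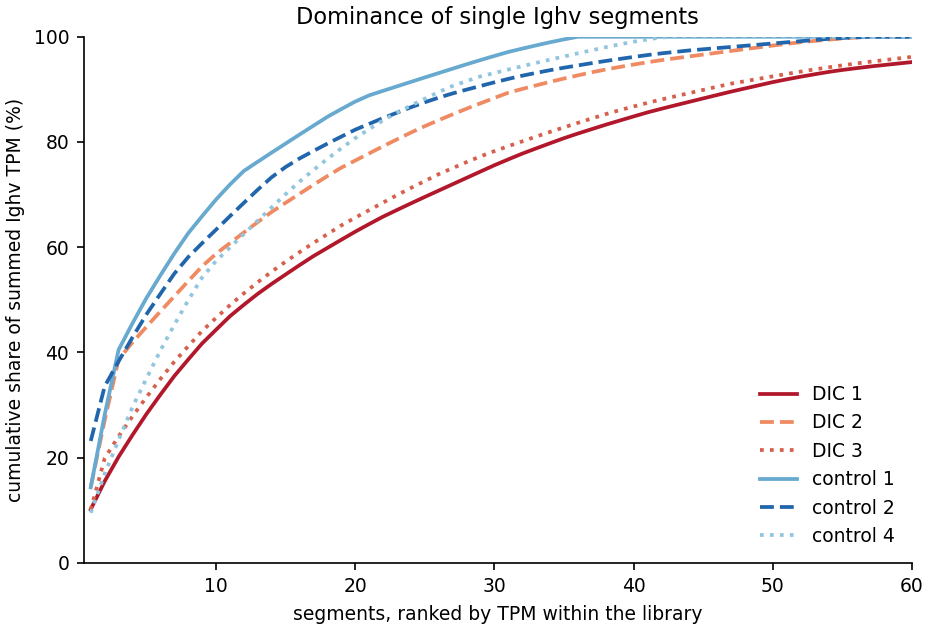
Cumulative share of summed Ighv TPM (percent) against the number of segments, ranked from the highest within each library. DIC 1 and DIC 3 reach 50% last, after 13 and 12 segments, and control 1 and control 2 first, after 5 and 6.

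Ighv7-1 and Ighv11-2 were the 2 highest segments in DIC 1, DIC 2, DIC 3 and control 2. Ighv7-1 is the germline segment of the T15 antibodies against phosphorylcholine, and Ighv11-2 is typical of B-1 cell antibodies against phosphatidylcholine. Ighv7-1 was at 85.1, 21.2 and 35.4 TPM in DIC 1, 2 and 3, against 9.59, 59.9 and 0.60 TPM in control 1, 2 and 4. Control 2 exceeded DIC 2 and DIC 3, while control 4 was near 0. Its log2 fold change on the log2(TPM + 1) scale was 2.02 ± 1.22 (SE; limma adjusted p = 0.378), and it did not pass the threshold of 0.05. The estimate was 0.69 without control 4 and 3.32 without control 2. Ighv11-2 was at 44.7, 24.2 and 34.2 TPM in DIC, against 3.51, 26.9 and 0.95 TPM in control libraries. Again control 2 lay within the DIC range and the other controls below it. Its log2 fold change was 2.46 ± 0.88 (SE; limma adjusted p = 0.216), and 1.61 without control 4.

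The kappa segment Igkv14-126, which pairs with the Ighv11-2 chain in these antibodies, was at 147, 77.9 and 134 TPM in DIC 1, 2 and 3, against 21.6, 126 and 10.6 TPM in control 1, 2 and 4. It was the highest of 160 Igkv rows in 5 of the 6 libraries, all except control 4. Igkv14-126 and Ighv11-2 ranked the libraries in the same order, which was DIC 1, DIC 3, control 2, DIC 2, control 1 and control 4. The summed Igkv rows, the kappa constant gene Igkc and the neutrophil gene Mmp8 had that order too, so it is not particular to the pair. Other partners did not show this order. Igkv7-33, a partner of Ighv7-1, was at 0.35, 0 and 0.49 TPM in DIC, against 0, 1.53 and 0 TPM in control libraries. Igkv4-91, the partner of Ighv12-3 in antibodies of the same kind, had 21.5, 1.07 and 4.52 TPM in DIC, against 0, 0 and 0 TPM in control libraries. Ighv12-3 itself was at 0.38, 0 and 0 TPM in DIC, against 0, 5.02 and 0 TPM in control libraries. Ighv12-3 and these kappa segments were chosen after their values were seen.

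Ighv1-41, which the annotation calls a pseudogene, kept to a narrow range and separated the groups. It was at 21.6, 19.3 and 14.6 TPM in DIC 1, 2 and 3, against 9.98, 12.3 and 6.49 TPM in control 1, 2 and 4. Every DIC library lay above every control. The mean was 18.5 ± 3.55 TPM in DIC and 9.59 ± 2.92 TPM in control libraries (SD, n = 3 each), with a log2 fold change of 0.90 ± 0.25 (SE; limma adjusted p = 0.212). It made up most of the pseudogene signal, which summed to 25.1, 22.4 and 18.3 TPM in DIC, against 11.1, 16.7 and 8.38 TPM in control libraries. That sum also separated the groups, unlike the functional sum of 812, 145 and 332 TPM in DIC, against 58.4, 242 and 94.8 TPM in control libraries. As the pseudogene sum is mostly Ighv1-41, it says little of the other pseudogenes. Ighv1-73, the other tested pseudogene, was named after its values were seen. It was at 1.06, 0.27 and 1.05 TPM in DIC, against 0.58, 1.12 and 0 TPM in control libraries, with overlap.

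Of the 185 segments, 54 (29.2%) reached 1 TPM in at least 3 of the 6 libraries and were tested, 52 functional ones and 2 pseudogenes. By limma with Benjamini-Hochberg adjustment over 13496 genes, 0 passed the adjusted p of 0.05, where 0.0593% of all tested genes did, 0.037% higher and 0.0222% lower. Their adjusted p ranged over 0.117 to 0.993. At an unadjusted p under 0.05, 16 of the 54 (29.6%) were higher in DIC and 0 lower, beside 6.43% and 13.8% of all tested genes. Estimates were above 0 for 52 of 54 (96.3%) and for 41.5% of all tested genes. The median log2 fold change was 1.22, against -0.08 over all tested genes. These figures are a description, since 7 of the 54 reached 1 TPM in every DIC library and in no control, and passed the filter through DIC alone. DIC 1 was the highest library for 41 of the 54.

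Groups did not overlap, with DIC higher, for 10 of the 54 (18.5%), beside 7.08% of all tested genes. They were Ighv9-3, Ighv4-1, Ighv1-63, Ighv1-15, Ighv1-75, Ighv1-85, Ighv1-41, Ighv14-3, Ighv1-55 and Ighv1-52. Of these, all but Ighv1-41, Ighv1-55 and Ighv1-52 are the 7 that passed the filter through DIC alone and so had to separate, and the count supports nothing. The reverse held for 0 of 54, beside 18.4% of all tested genes. With untested rows included, 11 of the 113 segments above 0 anywhere (9.73%) separated in this way, beside 5.37% of all such rows, and 0 in reverse, beside 9.78%. Above 0 in every DIC library and no control were 4 segments (3.54%), beside 0.613% of all rows above 0 anywhere. The reverse held for 0 segments, beside 0.18% of rows. These were Ighv4-1, Ighv1-15, Ighv1-63 and the untested Ighv1-12, named after its values were seen, which was at 2.17, 0.87 and 0.41 TPM in DIC.

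Ighv9-3, shown above with its sequence, was at 10.1, 3.98 and 6.36 TPM in DIC 1, 2 and 3, against 0, 0.57 and 0 TPM in control 1, 2 and 4. Control 2 was the only control with a value. Ighv4-1, the single functional member of its family, had 5.04, 2.19 and 2.46 TPM in DIC, against 0, 0 and 0 TPM in control libraries. Both entered the test through the DIC libraries alone and did not pass the threshold, and a fold over zeros would depend on the pseudocount.

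The other separated segments belong to the Ighv1 and Ighv14 families. Ighv1-15 had 14.4, 2.27 and 2.12 TPM in DIC, against 0, 0 and 0 TPM in control libraries. Ighv1-63 had 3.88, 1.71 and 2.12 TPM in DIC, with the controls again listed at 0. Both were seen in DIC only, but Ighv1-15 was 98.4% identical to Ighv1-23, so its reads may be shared. Ighv1-23, named after its values were seen, was at 3.19, 4.88 and 2.93 TPM in DIC, against 2.20, 6.64 and 5.48 TPM in control libraries. Ighv1-75 was at 9.38, 1.91 and 4.97 TPM in DIC, against 0.99, 0 and 0.55 TPM in control libraries. Ighv1-55 was at 18.2, 4.82 and 6.63 TPM in DIC, against 2.99, 2.66 and 0.41 TPM in control libraries. In both of these DIC 1 was highest. Ighv1-52 was at 10.7, 2.89 and 2.27 TPM in DIC, against 1.80, 0.34 and 0.08 TPM in control libraries. Ighv14-3 was at 5.46, 1.20 and 3.83 TPM in DIC, against 0.41, 0 and 0.91 TPM in control libraries. The groups lay close together for both, and Ighv1-52 has a copy, Ighv1-61, that is 98.7% identical. Ighv1-85 differed in its order, with DIC 2 highest at 2.27 TPM, beside 1.55 TPM in DIC 1 and 1.06 TPM in DIC 3, against 0, 0.57 and 0 TPM in control libraries.

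Several segments seen in all 6 libraries overlapped widely. Ighv1-72, the segment of the classical response to the hapten NP, was at 30.8, 0.73 and 13.4 TPM in DIC, against 1.22, 11.8 and 4.50 TPM in control libraries. Ighv1-19 was at 38.9, 0.39 and 10.4 TPM in DIC, against 1.19, 9.92 and 5.04 TPM in control libraries. For both, DIC 2 was the lowest of the 6. The estimate was 0.78 ± 1.10 for Ighv1-72 (SE; limma adjusted p = 0.713) and turned to -0.11 without DIC 1. For Ighv1-19 it was 0.71 ± 1.18 (SE; limma adjusted p = 0.761) and turned to -0.40 without DIC 1. Ighv1-72 is also 99.0% identical to Ighv1-62-3. Ighv1-82 was at 29.7, 4.94 and 7.88 TPM in DIC, against 0.82, 3.47 and 7.66 TPM in control libraries. Ighv1-74 was at 14.8, 3.31 and 3.47 TPM in DIC, against 2.26, 3.70 and 0.44 TPM in control libraries. Ighv5-16 was at 8.34, 5.46 and 12.1 TPM in DIC, against 0.59, 10.1 and 2.00 TPM in control libraries. In these 3 a single control reached into the DIC range, control 4 for Ighv1-82 and control 2 for the other two.

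Control 4 differed from the other libraries in its leading segments. Ighv2-2 was at 10.0, 3.38 and 1.58 TPM in DIC, against 0.58, 0.56 and 9.81 TPM in control libraries. Ighv14-2 was at 4.43, 0.57 and 2.12 TPM in DIC, against 1.17, 0.57 and 6.6 TPM in control libraries. Control 4 was the highest library for Ighv14-2 and close to DIC 1 for Ighv2-2. Ighv2-2 has a near copy in Ighv2-4, at least 98% identical. The log2 fold change was 0.74 ± 0.85 for Ighv2-2 and 0.01 ± 0.67 for Ighv14-2 (SE), with limma adjusted p = 0.645 and 0.993. Only Ighv1-23 and Ighv8-12 had estimates under 0 among the 54, at -0.24 and -0.47 (limma adjusted p = 0.734 and 0.737).

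**Figure D3:**
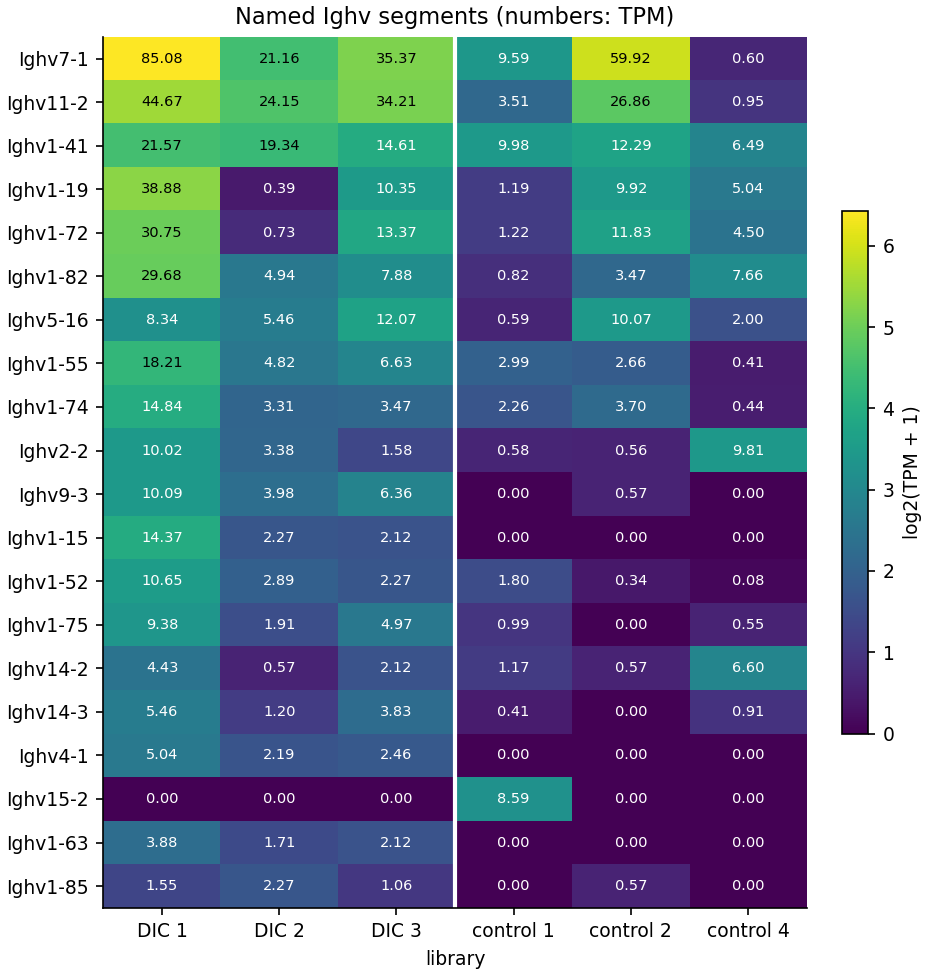
TPM of the 20 segments chosen by the naming rule (numbers in the cells), coloured by log2(TPM + 1), with DIC libraries left of the white line and controls right of it. Ighv7-1, Ighv11-2 and Ighv1-41 lead, and control 2 resembles the DIC libraries for the first 2. As 10 of the 20 were chosen because DIC lay above every control, zeros on the control side follow from the rule.

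Removing control 2 changed the calls. With the 2 remaining controls, 9 of the 54 segments (16.7%) passed the adjusted p of 0.05 in limma, all higher in DIC, beside 3.93% of all tested genes higher and 8.45% lower. They were Ighv11-2, Ighv9-3, Ighv4-1, Ighv1-63, Ighv5-16, Ighv1-85, Ighv1-41, Ighv1-69 and Ighv7-4. Ighv9-3, Ighv4-1, Ighv1-63 and Ighv1-85 are among those that entered the test through DIC alone. With control 2 left out, no remaining control reached 1 TPM for Ighv1-69 and Ighv7-4 either. Control 2 had the highest Ighv sum of the controls, so its removal raises the ratio of DIC to control. The count of calls is therefore a description and supports nothing. Ighv11-2 then had a log2 fold change of 3.53 ± 0.42 (SE; limma adjusted p = 0.0162). Ighv7-4 was at 2.37, 4.81 and 1.25 TPM in DIC, against 0, 1.31 and 0 TPM in control libraries. Ighv1-69 was at 5.37, 1.80 and 3.97 TPM in DIC, against 0.59, 6.55 and 0 TPM in control libraries. For both, control 2 was the one control above the lowest DIC library.

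The array has 16 families. Ighv1, with 93 rows, was the largest share in every library, at 53.8%, 43.8% and 55.3% of summed Ighv TPM in DIC 1, 2 and 3, against 44.5%, 34.3% and 50.2% in control 1, 2 and 4. The groups overlapped. Ighv7, with 4 rows, followed Ighv7-1 and held 11.1%, 19.3% and 10.7% in DIC, against 13.8%, 25.3% and 0.581% in control libraries. Control 2 had the highest share and control 4 the lowest. Ighv16 was listed at 0 throughout, and Ighv15 was seen in control 1 only.

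The small families Ighv4 and Ighv9 separated the groups in their sums. Ighv9, with 4 rows, summed to 17.1, 3.98 and 9.38 TPM in DIC, against 1.03, 0.57 and 0 TPM in control libraries. Ighv9-3 held most of the sum in DIC and was the only member above 0 in DIC 2 and in control 2. Ighv4, with 2 rows, summed to 5.04, 2.19 and 2.46 TPM in DIC, against 0, 0 and 0.60 TPM in control libraries, the last from the pseudogene Ighv4-2. These sums follow from the segments already described.

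**Figure D4:**
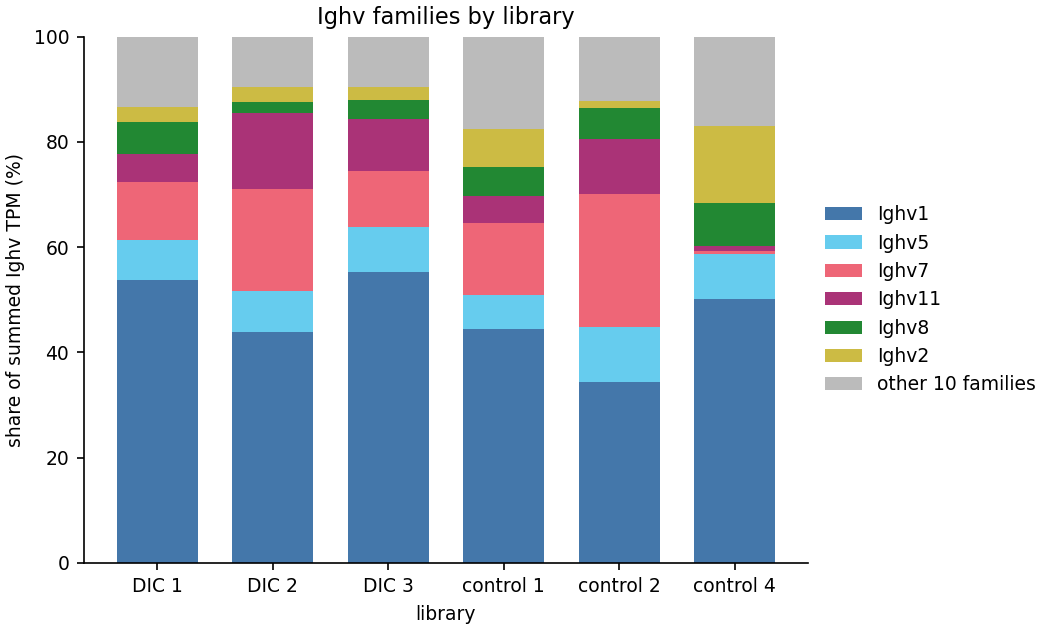
Share of summed Ighv TPM (percent) held by each family, 1 bar per library, with the other 10 families pooled in grey. Ighv1 is the largest block in every bar, and control 4 stands out by its small Ighv7 share of 0.581% and its Ighv2 share of 14.7%.

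By position, the families nearest the D segments, Ighv2 and Ighv5 with 33 rows, held a smaller share in DIC. It was 10.3%, 10.7% and 10.9% in DIC 1, 2 and 3, against 13.5%, 11.9% and 23.2% in control 1, 2 and 4, without overlap. The DIC libraries lay within 1 percentage point of each other, and control 2 was the nearest control. Neither family separated the groups alone. Ighv5 held 7.49%, 7.88% and 8.51% in DIC, against 6.34%, 10.5% and 8.45% in control libraries. Ighv2 held 2.80%, 2.84% and 2.42% in DIC, against 7.20%, 1.35% and 14.7% in control libraries, so that control 4 and control 1 were highest. In TPM the groups overlapped, at 86.2, 17.9 and 38.3 TPM in DIC, against 9.42, 30.8 and 23.9 TPM in control libraries. In control 4, Ighv2-2 alone gave 9.81 of the 23.9 TPM. The far families Ighv1 and Ighv8, with 109 rows, held 59.8%, 45.9% and 59.0% in DIC, against 50.1%, 40.2% and 58.4% in control libraries, with overlap. The remaining families, with 43 rows, overlapped too. Of these blocks only the nearest separated the groups, by a narrow gap, and this is a description. Ighv5-2, known as VH81X and used early by B cell precursors, was at 0.77, 2.87 and 3.13 TPM in DIC, against 2.89, 0.57 and 2.59 TPM in control libraries. It was named after its values were seen, and its log2 fold change was 0.12 (limma adjusted p = 0.899).

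Light chain variable segments, which complete the binding site, were ordered much as the heavy chain segments. The 160 Igkv rows summed to 1466, 352 and 577 TPM in DIC 1, 2 and 3, against 91.6, 488 and 76.1 TPM in control 1, 2 and 4. Above 0 were 81, 35 and 66 of them in DIC, against 23, 51 and 21 in control libraries. As with Ighv, DIC 1 and DIC 3 were highest and control 2 exceeded DIC 2. The 3 Iglv rows summed to 110, 39.9 and 53.4 TPM in DIC, against 12.3, 22.5 and 34.5 TPM in control libraries, without overlap. Igkv9-120 was at 14.9, 14.5 and 7.83 TPM in DIC, against 0, 0.56 and 0 TPM in control libraries. It passed the limma threshold (adjusted p = 0.0206), but it entered the test through the DIC libraries alone and was chosen with its values known, so it supports nothing on its own.

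Of the heavy chain constant genes, Ighm, which encodes the IgM constant region, did not follow the variable segments. It was at 392, 266 and 287 TPM in DIC, against 270, 336 and 336 TPM in control libraries (log2 fold change -0.01, limma adjusted p = 0.983). The ratio of summed Ighv TPM to Ighm was 2.14, 0.630 and 1.22 in DIC, against 0.258, 0.770 and 0.307 in control libraries. Igha, which encodes the IgA constant region, was at 139, 1.48 and 35.3 TPM in DIC, against 6.54, 6.56 and 7.03 TPM in control libraries. Igha was thus high in DIC 1 and DIC 3 and lowest in DIC 2. Ighg2b was at 46.0, 4.88 and 8.59 TPM in DIC, against 4.63, 7.26 and 8.15 TPM in control libraries. The untested Ighg2c was at 56.5, 0 and 18.3 TPM in DIC, against 0, 0.94 and 0 TPM in control libraries. Ighg1 and Ighg3, also untested and named after their values were seen, were above 0 in DIC 1 and DIC 3 only. They were at 14.7, 0 and 0.59 TPM and at 6.33, 0 and 2.99 TPM in DIC. Of the 8 heavy constant genes, 4 were tested and 0 passed.

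Igkc and Jchain, like the variable segments, were highest in DIC 1 and DIC 3, with control 2 above DIC 2. Igkc, the kappa constant gene, was at 631, 165 and 292 TPM in DIC, against 45.1, 234 and 25.3 TPM in control libraries (log2 fold change 2.25 ± 0.83, SE; limma adjusted p = 0.219). Unlike the Ighv sum, Igkc was lower in control 4 than in control 1, and the ratio of summed Ighv TPM to Igkc was 1.33, 1.01 and 1.20 in DIC, against 1.54, 1.11 and 4.09 in control libraries. Jchain, which links IgM and IgA into polymers, was at 132, 26.9 and 55.2 TPM in DIC, against 3.39, 30.5 and 6.68 TPM in control libraries (log2 fold change 2.54 ± 0.81, SE; limma adjusted p = 0.212). Jchain and summed Ighv TPM ranked all 6 libraries alike, as DIC 1, DIC 3, control 2, DIC 2, control 4 and control 1. The ratio of the 2 was 6.33, 6.23 and 6.34 in DIC, against 20.5, 8.48 and 15.4 in control libraries. The DIC libraries were nearly equal in this ratio, which was formed after the values were seen, and all controls lay above them.

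**Figure D5:**
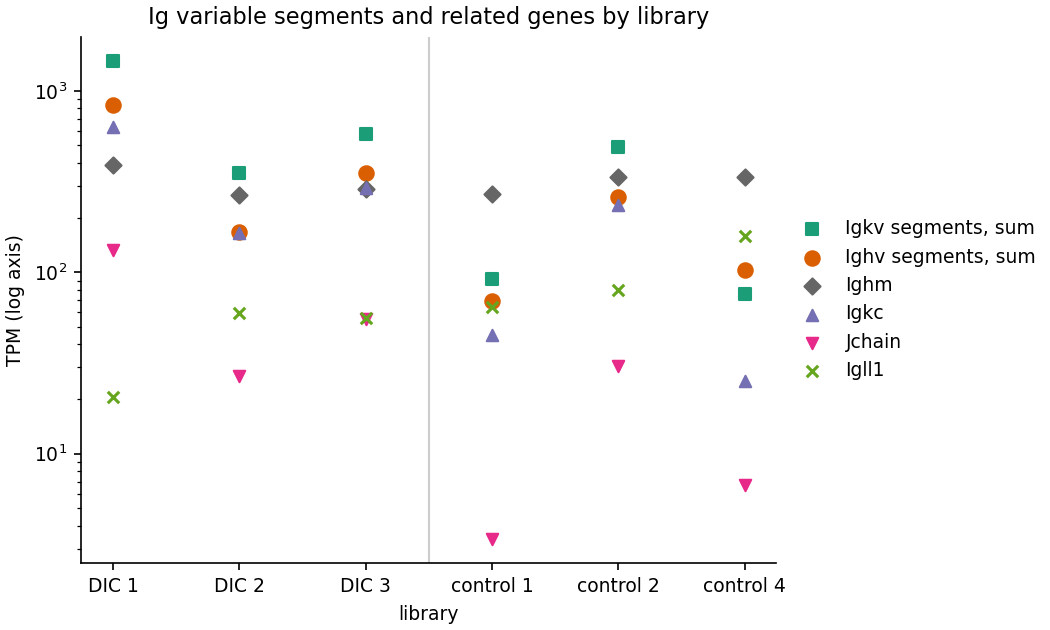
TPM on a log axis of the summed Ighv and Igkv segments and of 4 related genes in each library, with DIC left of the line. Jchain follows the library order of the Ighv sum, Igkc does so except that control 4 lies below control 1, Ighm stays between 266 and 392 TPM, and Igll1 is lowest in DIC 1 and highest in control 4.

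Surrogate light chain genes of B cell precursors did not follow this order. Igll1 and Vpreb1 encode the surrogate light chain, with which a precursor first displays its heavy chain. Igll1 was at 20.5, 59.4 and 55.6 TPM in DIC, against 64.0, 79.9 and 158 TPM in control libraries (log2 fold change -1.17 ± 0.47, SE; limma adjusted p = 0.235). Vpreb1 was at 13.3, 45.4 and 42.4 TPM in DIC, against 46.0, 59.3 and 118 TPM in control libraries. DIC 1, the highest in Ighv, was the lowest in both, and every DIC library lay under every control. Of the 8 genes of this list, which also holds light chain constant genes, 3 separated the groups downward, beside 18.4% of all tested genes. Vpreb3, of the same list, overlapped, at 17.4, 36.6 and 43.0 TPM in DIC, against 30.1, 46.2 and 91.6 TPM in control libraries. Of 14 B cell genes 9 were tested, with 2 estimates above 0, 7 under 0 and 0 called. Of the 5 too low to test, Ms4a1, Fcmr, Fcer2a and Cr2, genes of mature B cells, were highest in DIC 1 and DIC 3. Ms4a1 was at 2.81, 0.25 and 1.04 TPM in DIC, against 0.18, 0.41 and 0.20 TPM in control libraries, in the library order of the Ighv sum. Fcmr was at 3.90, 0.04 and 1.75 TPM in DIC, against 0.25, 0.37 and 0.25 TPM in control libraries. Fcer2a was at 1.18, 0.03 and 0.75 TPM in DIC, against 0, 0.20 and 0 TPM in control libraries. Cr2 was at 0.72, 0.03 and 0.6 TPM in DIC, against 0.43, 0.19 and 0.02 TPM in control libraries. For each of these, DIC 2 lay below control 2. Pax5 did not follow them, at 0.41, 0.52 and 0.81 TPM in DIC, against 0.53, 0.45 and 0.96 TPM in control libraries. These genes were named after their values were seen. Dntt, which adds bases at the junctions, was at 26.0, 51.3 and 49.5 TPM in DIC, against 55.5, 72.4 and 66.4 TPM in control libraries. Of 11 recombination genes, 10 were tested and 0 passed, with 4 estimates above 0 and 6 under 0. Dntt and Xrcc6 separated the groups downward. Xrcc5, named after its values were seen, separated them upward. It was at 11.8, 6.75 and 10.0 TPM in DIC, against 5.57, 6.58 and 4.61 TPM in control libraries. Of 5 cofactors of immunoglobulin promoters, 5 were tested and 0 passed.

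Of 10 plasma cell genes 7 were tested and 0 passed. The estimate was above 0 for Jchain and under 0 for the other 6. Prdm1, the main regulator of plasma cell fate, lay between 0.06 and 0.16 TPM in DIC and between 0.16 and 0.55 TPM in control libraries. Tnfrsf17, a plasma cell receptor, lay between 0.11 and 0.42 TPM in DIC and between 0.11 and 0.33 TPM in control libraries. Both were near 0 throughout. Xbp1, which supports secretion in many cell types, was at 183, 178 and 186 TPM in DIC, against 202, 202 and 201 TPM in control libraries.

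Most genes of a neutrophil list were higher in the libraries with a high Ighv sum. Together, 20 neutrophil genes held 25.4%, 18.7% and 21.8% of a library's TPM in DIC 1, 2 and 3, against 7.52%, 15.6% and 6.31% in control 1, 2 and 4. As for Ighv, DIC 1 and DIC 3 were highest and control 2 was the highest control, but DIC 2 lay above it. Of the 20, 16 estimates were above 0 and 13 separated the groups upward, beside 41.5% and 7.08% of all tested genes. None was at 0 TPM in any library, and 0 passed the test. The estimates under 0 were those of the primary granule genes Mpo, Elane, Ctsg and Prtn3. Mpo was at 10026, 12402 and 10759 TPM in DIC, against 13183, 11639 and 12432 TPM in control libraries, lowest in DIC 1. Retnlg, a late neutrophil gene picked after its values were seen, was at 5102, 81.4 and 1953 TPM in DIC, against 63.7, 109 and 72.0 TPM in control libraries, in the same library order as the Ighv sum. With the 20 genes removed and TPM rescaled, the Ighv ratio was 3.61. Whether cells of another type account for the Ighv values was not tested.

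The other marker lists differed in order. The 8 erythroblast genes summed to 670, 157 and 396 TPM in DIC, against 182, 149 and 222 TPM in control libraries, with DIC 1 and DIC 3 highest. All 8 estimates were above 0, 3 at an unadjusted limma p under 0.05, beside 41.5% and 6.43% of all tested genes. The groups separated upward for 2 of the 8, beside 7.08%, and 0 passed. The 12 T and NK cell genes, mostly Nkg7, summed to 1321, 1795 and 1505 TPM in DIC, against 1982, 1777 and 2256 TPM in control libraries. Of the T cell receptor genes, Trbc1 was at 2.14, 4.28 and 6.19 TPM in DIC, against 6.69, 6.88 and 19.4 TPM in control libraries, without overlap (log2 fold change -1.12 ± 0.46, SE; limma adjusted p = 0.237). Trbc2 was at 3.21, 1.39 and 2.94 TPM in DIC, against 1.81, 2.75 and 6.44 TPM in control libraries. Trac lay between 0 and 1.28 TPM in DIC and between 0.27 and 0.42 TPM in control libraries. Of the 12, 7 were tested, all 7 estimates were under 0, and 0 passed.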

How the data were processed

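The authors deposited TPM values per gene in 1 table, with 2 decimals. The tools named in the submitters' processing notes are fastp 0.19.5, HISAT2 2.1.0 and StringTie 2.1.2, with GRCm39 as the build. The annotation release was not given in the sources used. Per the labels' protocols, libraries were made from sorted cells with a SMART-Seq low-input kit. Symbols, types and locus order came from GENCODE M21 (GRCm38), matched by gene identifier, with 4669 rows unmatched. No coordinates are given, since the builds differ. Library numbers follow the table's columns, and control columns 1 and 4 could be assigned to the group only.

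log2(TPM + 1) was fitted by group with limma 3.58.1 (R 4.3.3, trend on the mean) for the 13496 genes that reached 1 TPM in 3 or more of 6 libraries. Two-sided p-values had Benjamini-Hochberg adjustment. The fit was tested on simulated data. Fold changes are DIC minus control and understate those of low genes. Segment identity came from pairwise alignment (Biopython 1.88).

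The segments, gene lists and rules were chosen with earlier results of these data known. Segments were named if called, among the top 3 of a library, tested without overlap between groups, or among the 10 highest of those above 0 in all libraries. Alternatives covered the pseudocount, the filter, scaling, pseudogenes, the top segment, the replicate block and leaving out each library. The 15 pairwise library correlations, 0.907 to 0.964, showed no repeated library.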

Additional observations from a re-analysis of the deposited data

How the results depend on the processing

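Of 49 alternative settings for the 4 summary results (calls, summed TPM, segments above 0 and top share), 48 kept the direction and the side of the threshold. The exception was leaving out libraries: limma called 0 to 9 segments, and the 9 came without control 2. Over these same omissions the log2 ratio of summed TPM was 0.85 to 2.39, and the difference in top share, -4.11 percentage points, was -7.19 without control 4 and -0.362 without control 2. Some of the 48 could not have differed. Rescaling without the neutrophil genes, quantile normalization and dropping each library's top segment all left the difference in segments above 0 at 31.3. That rescaling also leaves the top share as it was. Ighv7-1, at 2.02, was 0.78 with the replicate block. Among 264 settings for the 19 named and tested segments, 250 kept their call, 7 were newly past the threshold, all without control 2, and 7 reversed in sign. Ighv14-2, at 0.01, became -0.074 under quantile normalization and ranged over -0.44 to 0.69 when libraries were left out. Over the same omissions Ighv1-19 ranged over -0.40 to 2.02 and Ighv1-72 over -0.11 to 1.99, each lowest without DIC 1 and highest without DIC 2. The cause was not tested. Fitting the replicate block, possible for the 4 libraries with shared numbers 1 and 2, called 0 segments, with 16 at an unadjusted p under 0.05, a log2 ratio of summed TPM of 1.48, 30 more segments above 0 in DIC and a difference of -6.46 percentage points in top share. Whether the numbers pair the samples is not known, and control column 1 could be assigned to the group only. Deviations of same-numbered libraries correlated at -0.07 and -0.10, which cannot decide it, as only numbers 1 and 2 are shared. The depth behind TPM is unknown, so a segment listed at 0 may lie under detection.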
